A study of Homo sapiens with 7 samples.

Results

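The genes described here encode the ATG8 proteins and the ATG4 proteases that process them: MAP1LC3A, MAP1LC3B, MAP1LC3C, GABARAP, GABARAPL1 and GABARAPL2 on one side, and ATG4A, ATG4B, ATG4C and ATG4D on the other. They were chosen by their gene name among the non-control spots of the arrays, which gave 10 genes of 36337 gene names and 15 probes of 50599. Labelled RNA (Cy3) of 4 replicates was hybridized to Agilent single-colour arrays. The cells were HCT116 H2B-GFP, a human colon carcinoma line that carries a fluorescent histone. Every replicate had been treated with bafilomycin A1 at 10 nM for 30 h, and 100 ng of total RNA was labelled per array. The 3 untreated samples were not analysed here, so the values below describe levels under bafilomycin A1 and their spread between replicates, with no effect of the drug, no fold change by treatment and no p-value. The labels call the samples replicates without naming separate cultures, while the study's methods describe biological replicates for what it evaluated statistically.

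ATG8 proteins are small ubiquitin-like proteins that become attached to the lipid phosphatidylethanolamine in the growing autophagosome membrane, where they bind cargo receptors and help the membrane to expand and fuse. ATG4 proteases cut the C terminus of newly made ATG8 proteins so that a glycine is exposed for this attachment, and later release ATG8 proteins from the membrane. Bafilomycin A1 blocks the vacuolar proton pump of lysosomes, and lipid-bound LC3 protein is known to accumulate when it does. The arrays measured messenger RNA, which says nothing of how much of the protein was attached to lipid.

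The ATG8 paralogs arose from shared ancestors, and 3 of their probes lie in neighbouring stretches of the sequence that codes the same end of the protein. They are shown because they let a reader see how these probes differ where they overlap. In the probes of GABARAPL2 and MAP1LC3A, capitals mark the bases that are the same as in GABARAP at the aligned place. In the GABARAP probe, capitals mark the 18 bases that all 3 share. 
GABARAP: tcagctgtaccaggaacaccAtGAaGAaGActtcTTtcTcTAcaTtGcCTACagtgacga
GABARAPL2: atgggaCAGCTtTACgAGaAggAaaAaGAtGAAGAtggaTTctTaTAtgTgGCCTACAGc
MAP1LC3A: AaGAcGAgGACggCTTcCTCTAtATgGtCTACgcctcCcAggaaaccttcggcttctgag
Without gaps, the GABARAP and GABARAPL2 probes were identical at 34 of 55 overlapping bases, or 61.8%. The GABARAP and MAP1LC3A probes were identical at 25 of 40 overlapping bases, or 62.5%. All 43 pairs of probes to different paralogs within a family were aligned with an overlap of at least 40 bases. These 2 pairs were over 60%, and the best alignment of any other pair reached 52.5%. Each probe therefore differed from every paralog's probe aligned with it by at least 15 bases. Many of these pairs come from different places in their transcripts, so a low identity between such probes says little of the paralogs. The match of a probe to a paralog's whole transcript, and so its binding to that RNA, was not tested.

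The next pair of probes is shown because each had a spot left out for an outlier mark, described below, and because they differ in base composition. Capitals mark G and C, which make up 68.3% of the ATG4B probe and 38.3% of the ATG4C probe.
ATG4B: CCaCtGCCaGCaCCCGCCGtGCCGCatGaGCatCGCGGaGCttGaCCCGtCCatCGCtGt
ATG4C: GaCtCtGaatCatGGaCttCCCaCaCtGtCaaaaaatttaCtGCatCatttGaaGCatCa
The ATG4B probe lies at chr2:242608040-242608099 and the ATG4C probe at chr1:63284714-63284773, both on the plus strand of GRCh37, the build of the coordinates in the array files. The files give no exon or intron for a probe, and no annotation of that build was used here.

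Values are background-subtracted signals on the log2 scale relative to the median of the array, with outlying spots left out and the median taken over the probes of a gene. A value of 1 is a signal 2-fold above the array median. Different probes bind with different strength, so a level of 1 gene cannot be set against that of another. Detection followed the scanner software's flag for a signal well above background, and a gene needed 1 probe that passed on all 4 arrays. Of the 10 genes, 8 were detected, against 52.5% of all gene names on the arrays. These were 4 of the 6 ATG8 genes and 4 of the 4 ATG4 genes. MAP1LC3C was well above background on no array, as were 35.5% of all gene names, and MAP1LC3A was well above background on 3 arrays. Every probe of the gene passed in 6 of the 8 detected genes, against 82.6% of all detected genes, ATG4B and ATG4C being the others. At the level of probes, 10 of 15 were well above background on all 4 arrays. A probe whose spot was left out for an outlier mark counted as not passing on that array. This held for 1 probe of ATG4B and 1 of ATG4C, which passed on their 3 other arrays. ATG4B therefore fell short through the left-out spot alone.

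**Figure D1:**
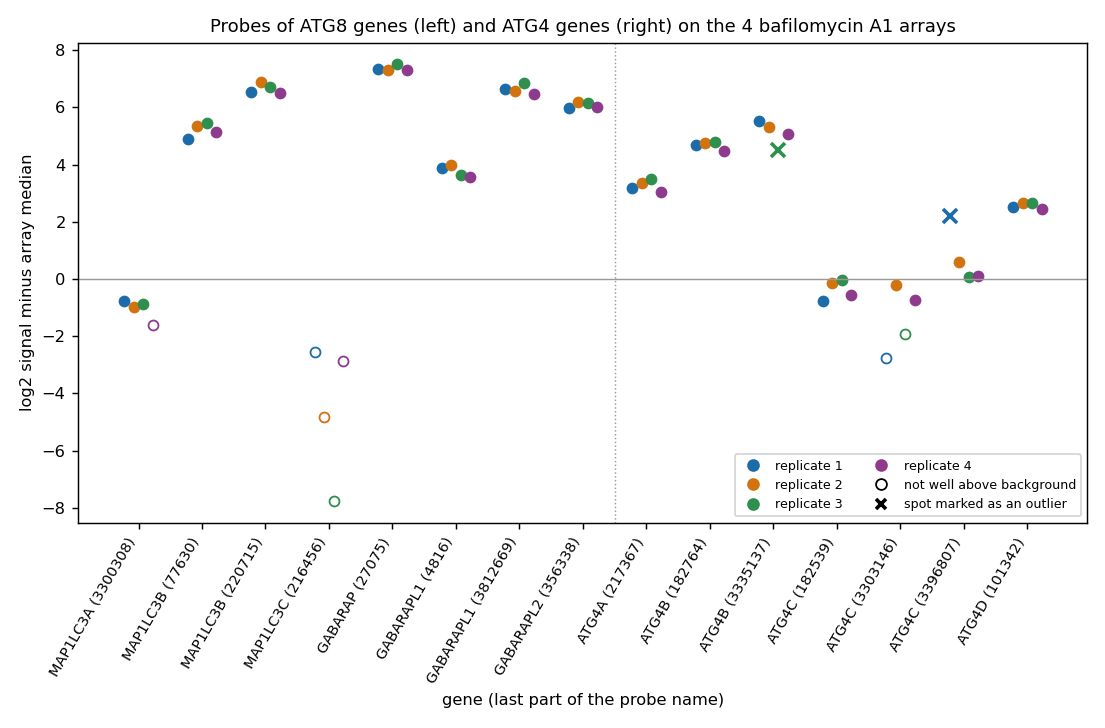
Each point is 1 probe on 1 of the 4 bafilomycin A1 arrays, with the log2 signal minus the array median on the vertical axis and the probes, named by gene and the last part of the probe name, on the horizontal axis. Filled points were well above background, hollow points were not, and crosses are spots marked as outliers. The 4 points of most ATG8 probes lie close together, while MAP1LC3C has no filled point and the ATG4C probes spread widely.

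The arrays were measured in the same scan. Between 55.6% and 60.4% of spots were well above background, no spot was saturated (0 spots), and 514 to 2249 spots per array were marked as outlying. Of 8 markers of colon epithelium, 6 were detected, with KRT18 at 10.6 ± 0.05 (SD, n = 4) and CDH1 at 5.81 ± 0.31. CEACAM5 and VIL1 never passed the detection flag. Of 10 markers of other cell types, 4 were detected, namely the blood cell genes PTPRC at -2.07 ± 1.12, through 1 of its 5 probes, and CD3E at -0.34 ± 0.15, the fibroblast gene COL1A1 at 2.91 ± 0.26 and the endothelial gene CDH5 at 0.83 ± 0.31. The hepatocyte gene ALB, COL1A2 and PECAM1 passed on none. The detected shares were 75% of the colon markers and 40% of the others, against 52.5% of all gene names.

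The GABARAP subfamily was detected throughout. GABARAP, an ATG8 protein first known for binding a GABA receptor, was measured by 1 probe at chr17:7144192-7144673 on the minus strand. The probe is 60 bases long and its position spans 482 bases, so it crosses a splice junction and reads spliced RNA. It stood at 7.35, 7.32, 7.50 and 7.30 in replicates 1 to 4, with a mean of 7.36 ± 0.09 (SD, n = 4). The values were within 1.15-fold of each other, the smallest spread of the 8 detected genes with this scaling. ATG4D had the smallest SD with the software's processed signal (0.03) and after quantile normalization (0.02), and with the other centring described below GABARAPL1 (0.06). Here 7.31% of all detected genes had a smaller SD.

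GABARAPL2, also called GATE-16, is known for a part in Golgi traffic besides autophagy. Its probe at chr16:75611184-75611243 gave 5.96, 6.18, 6.15 and 6.02, with a mean of 6.08 ± 0.10 (SD, n = 4) and a span of 1.16-fold. With this scaling replicates 2 and 3 were the higher pair. With the processed signal replicate 4 was highest, at 3.73, and after quantile normalization replicate 3 was lowest, at 5.48.

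GABARAPL1, the closest relative of GABARAP, was measured by 2 probes. The gene stood at 5.27, 5.26, 5.24 and 5.02, with a mean of 5.20 ± 0.12 (SD, n = 4). Replicate 4 lay apart below the rest, which lay between 5.24 and 5.27. By Dixon's ratio this gene alone of the 8 had 1 array apart (0.896), as did 8.48% of all detected genes, and under another scaling or centring it did not pass (0.448 to 0.567). The narrow cluster belongs to the median over the probes and not to either probe. The probe at chr12:10374676-10374735 gave 3.89, 3.97, 3.65 and 3.58. The probe at chr12:10375579-10375637 gave 6.65, 6.56, 6.83 and 6.46. On replicate 3 the first lay 0.12 below its own mean and the other lay 0.21 above, so they moved in opposite directions and cancelled. The files list the transcript of the pseudogene GABARAPL3 beside GABARAPL1 for the second probe, so its signal may hold both. The difference between the probes varied with an SD of 0.25 over the 4 arrays, about double the SD of the gene.

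The LC3 subfamily was uneven. MAP1LC3B, the LC3 protein most used as a marker of autophagosomes, stood at 5.72, 6.12, 6.07 and 5.82, with a mean of 5.93 ± 0.19 (SD, n = 4) and a span of 1.32-fold. Replicates 2 and 3 were the higher pair, as for GABARAPL2. Its probe at chr16:87437440-87437499 gave 4.90, 5.36, 5.44 and 5.12. Its probe at chr16:87436758-87436817 gave 6.54, 6.88, 6.70 and 6.52, and the files list the transcript of MAP1LC3B2, a near-identical copy, for it as well. Both probes were below their own mean on replicates 1 and 4 and above it on replicates 2 and 3. Their difference varied with an SD of 0.16.

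MAP1LC3A was near the limit of the measurement. Its probe at chr20:33147644-33147703 read 45.1, 35.2, 38.3 and 21.0 units above background, and the last of these was not flagged as well above background. On the log2 scale these were -0.77, -0.99, -0.87 and -1.59, with a mean of -1.06 ± 0.37 (SD, n = 4). By the weaker flag for a signal positive and significant against background, it passed on all 4 arrays. Without replicate 4 the number of detected genes was 9, MAP1LC3A being the one added.

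MAP1LC3C, the ATG8 protein that binds the receptor NDP52 (CALCOCO2) in the clearance of bacteria, was not well above background on any array. Its probe at chr1:242159413-242159472, on the minus strand, read 13.0, 2.50, 0.327 and 8.62 units above background. Of these, 2 were positive and significant by the weaker flag. The arrays set only an upper bound on this gene, and its spread is that of signals close to 0.

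Of the ATG4 proteases, ATG4B is known to act on most ATG8 proteins, ATG4A to favour the GABARAP subfamily, and ATG4C and ATG4D to be much weaker as full-length proteins. ATG4A, with 1 probe at chrX:107397546-107397605, stood at 3.18, 3.35, 3.51 and 3.03, with a mean of 3.27 ± 0.21 (SD, n = 4). Replicates 3 and 4 were the extremes, 1.398-fold apart and just under the threshold of 1.4 used below.

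ATG4D, with 1 probe at chr19:10663725-10663784, stood at 2.51, 2.66, 2.66 and 2.45, with a mean of 2.57 ± 0.11 (SD, n = 4). It was the only one of these genes whose probe was printed as 10 spots on each array, which gives a spread within the array. The medians of the 10 spots were 2.48, 2.59, 2.60 and 2.42, and the spots ranged from 2.32 to 2.80 on replicate 1 and from 2.20 to 2.69 on replicate 4. Within an array the SD of single spots was 0.15 to 0.20, which gives a standard error of 0.05 to 0.06 for the mean of 10 spots, and the SD between the arrays was 0.11. Single spots of all 4 arrays overlapped when not matched by place. The spots had the same places on each array, and some were high on all of them, as 1 at 2.80, 2.87, 2.94 and 2.69. The spread of spots therefore includes differences between places. Matched by place, replicate 4 was below replicate 2 at every spot, for example 2.20 against 2.59. The 10 spots of an array share its centring, so this order is not 10 separate results. With the processed signal ATG4D stood at 0.20 on replicate 2 and 0.16 on replicate 4, and after quantile normalization at 2.28 and 2.24. The SD between arrays was then 0.03 and 0.02. With the other centring described below these arrays stood at 3.68 and 3.66, and the SD was 0.12. Across the 673 detected probes with 10 spots, the median SD of single spots within an array was 0.18, and the median SD of the probe's value between arrays was 0.20.

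**Figure D2:**
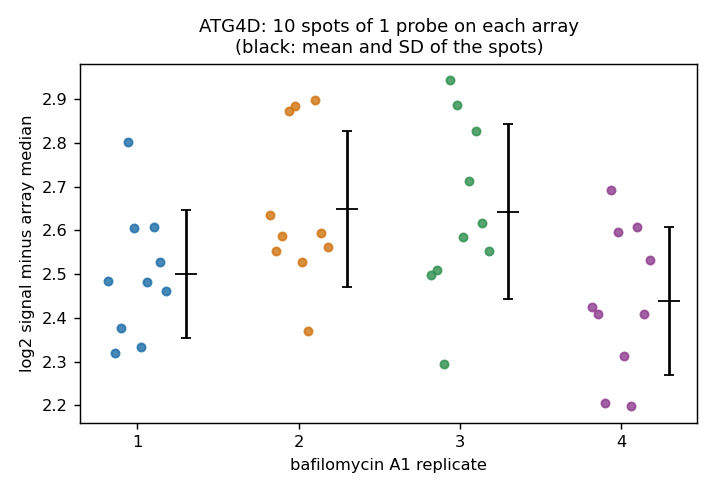
Log2 signal minus the array median (vertical axis, not starting at 0) of each of the 10 ATG4D spots on each bafilomycin A1 replicate (horizontal axis), with the mean and SD of the spots in black. The spots of the 4 arrays overlap when not matched by place, with medians between 2.42 on replicate 4 and 2.60 on replicate 3.

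ATG4B had 2 probes. The one at chr2:242613194-242613253, with 26.7% G and C, gave 4.68, 4.74, 4.78 and 4.49. The G and C rich one printed above gave 5.53, 5.30 and 5.07 on replicates 1, 2 and 4. Its spot on replicate 3 was left out because its local background, 38 units against a median of 33.5 for the array, carried the software's outlier mark. The same probe had a local background of 36 to 38 units on the other arrays without the mark. The spot read 1599 units, against 2135 to 3549 on the other arrays. With it left out, the gene stood at 5.10, 5.02, 4.78 and 4.78, with a mean of 4.92 ± 0.17 (SD, n = 4), and its value on replicate 3 rests on the other probe alone. With the spot kept, replicate 3 was at 4.64 and the SD was 0.21. Replicate 3 was then the lowest array for the gene, whereas the G and C poor probe was highest there.

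ATG4C varied most of the 8 detected genes with this scaling, though the size of its spread depended on which probes and spots were used. It stood at -1.76, -0.15, -0.05 and -0.57, with a mean of -0.63 ± 0.79 (SD, n = 4), and 94.2% of all detected genes had a smaller SD. The value on replicate 1 includes a probe that was not well above background there. With only the probe that was well above background on all 4 arrays, the SD was 0.34 and the span 1.64-fold. The probe at chr1:63330508-63330567 gave -0.76, -0.15, -0.05 and -0.57 and was well above background on all 4 arrays. The probe at chr1:63329990-63330049 gave -2.76, -0.22, -1.93 and -0.73 and was well above background on replicates 2 and 4. The remaining probe, printed above, gave 0.61, 0.09 and 0.11 on replicates 2 to 4.

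The spot of that printed ATG4C probe on replicate 1 read 351 units, against 68.4 to 106.8 on the other arrays. Its local background was 42 units, against 35 to 38 for the same probe elsewhere and a median of 34 for the array, and it carried the same outlier mark as the ATG4B spot. These were the 2 spots among those of the 10 genes that were left out, so the number of probes behind the gene varied between arrays in 2 of the 8 detected genes, against 8.42% of all detected genes. With the ATG4C spot kept, the gene stood at -0.76 on replicate 1 and the SD was 0.34, since the median then fell on the probe that was well above background everywhere. The direction was the same either way, with replicate 1 the lowest array. The larger SD of 0.79 therefore needs both the marked spot left out and the probe at background kept. Without replicate 1 it was 0.28. After normexp and quantile normalization it was 0.23, as for ATG4B.

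**Figure D3:**
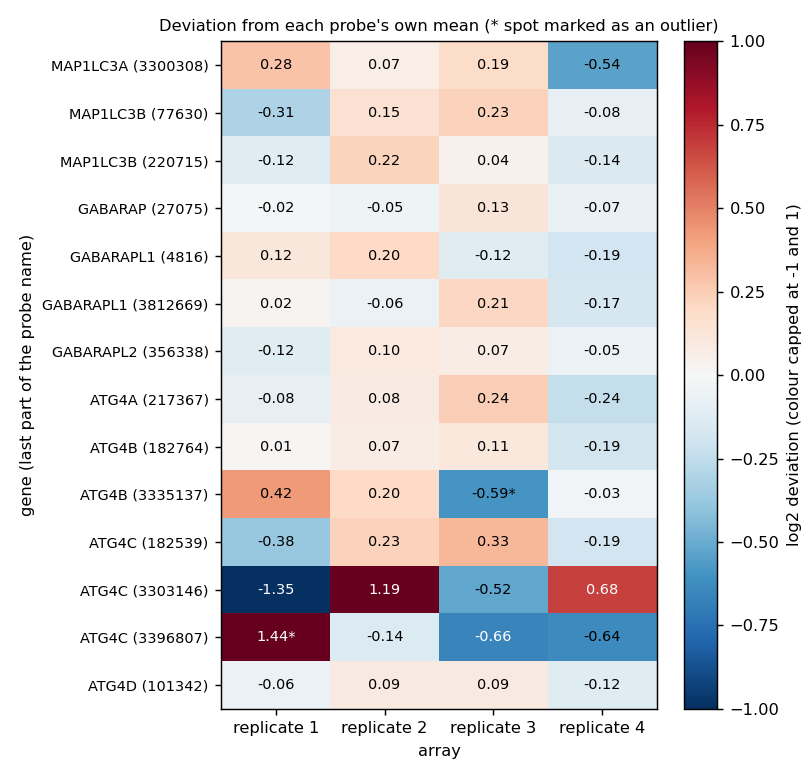
Log2 deviation of each probe (rows) on each bafilomycin A1 array (columns) from its own mean over the 4 arrays, with every spot kept; red is above and blue below the mean, and an asterisk marks a spot with the outlier mark. MAP1LC3C is not drawn because it was never well above background. The 2 marked spots hold deviations of 1.44 for ATG4C and -0.59 for ATG4B, both opposite in sign to those of the other probes of the same gene on that array.

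Among the 8 detected genes, 1 spanned more than 1.4-fold between replicates, namely ATG4C, against 46.4% of all detected genes. The study's methods used 1.4-fold as a threshold for changed genes, and here it serves only to size the replicate error. The median SD was 0.14 for the 8 genes and 0.21 for all 19083 detected genes, and 6 of the 8 were below the latter. The genes were not matched to the others for signal level. ATG4C had a mean of -0.63, while the other detected members had means of 2.57 to 7.36. The part of signal level in these SDs and spans was not tested. The detected ATG8 genes had SDs of 0.09 to 0.19. The ATG4 genes had SDs of 0.11 to 0.79, and those other than ATG4C of 0.11 to 0.21. The ATG8 genes left out by the detection flag, MAP1LC3A and MAP1LC3C, had SDs of 0.37 and 2.38. After local background correction with the normexp model and quantile normalization, ATG4B also passed 1.4-fold, at 1.47.

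**Figure D4:**
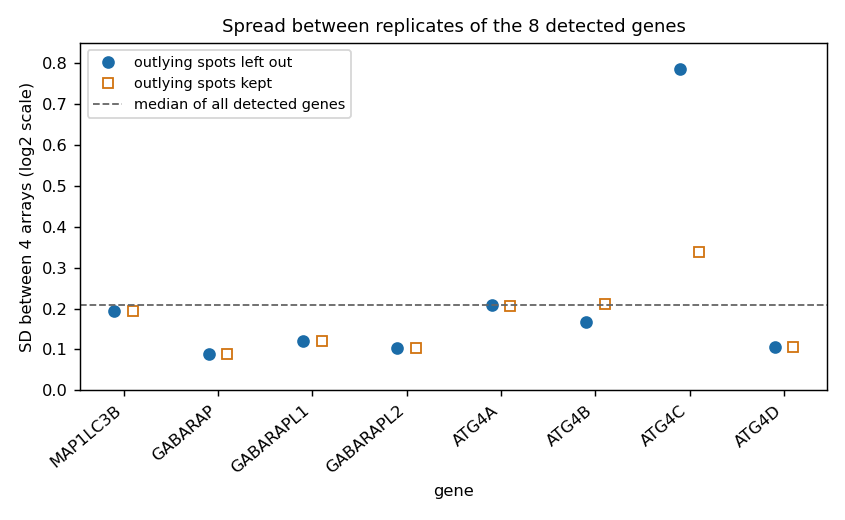
SD of the log2 value over the 4 bafilomycin A1 arrays (vertical axis) of each of the 8 detected genes (horizontal axis), with outlying spots left out (filled circles) and kept (open squares); the dashed line is the median of all detected genes at 0.21. ATG4C falls from 0.79 to 0.34 when 1 spot is kept, and ATG4B rises from 0.17 to 0.21.

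Paralogs were compared by the difference between them on the same array, since a factor that scales a whole array cancels there. The SD of that difference over the arrays was 0.09 to 0.19 for the 6 pairs of detected ATG8 genes, with a median of 0.13. It was 0.11 to 0.90 for the 6 pairs of ATG4 genes, with a median of 0.49, and the 3 pairs that include ATG4C were at 0.70 to 0.90. These rest on replicate 1, where ATG4A minus ATG4C was 4.95, against 3.49, 3.56 and 3.60 on the others. Without replicate 1 the SDs of the ATG4C pairs were 0.05, 0.27 and 0.16 with ATG4A, ATG4B and ATG4D, and the median of the ATG4 pairs was 0.15, beside 0.09 for the ATG8 pairs. With outlying spots kept the ATG4 median was 0.25, and with only probes well above background on all 4 arrays it was 0.16, while the ATG8 median was 0.13 in both. Over all 12 pairs the median was 0.18.

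With this scaling and all probes, MAP1LC3B and GABARAPL2 kept the steadiest difference, at -0.24, -0.06, -0.08 and -0.20 on replicates 1 to 4, an SD of 0.09. With the processed signal the steadiest pair was GABARAP and GABARAPL2 (0.083 against 0.097). With only probes well above background on all 4 arrays it was ATG4B and ATG4D (0.058), and without replicate 1 MAP1LC3B and GABARAPL1 (0.02). MAP1LC3B and GABARAPL2 were here the only pair of the 12 whose difference varied less than either gene alone. Their difference did not do so with the processed signal or after normexp and quantile normalization. Other pairs also did so with only probes well above background on all 4 arrays, such as ATG4B and ATG4D. The same held with the other centring described below, as for ATG4A and ATG4D. In 5 pairs the difference varied more than either gene. GABARAP minus GABARAPL2 was 1.38, 1.14, 1.34 and 1.27, an SD of 0.11 beside 0.09 and 0.10 for the genes themselves. ATG4A minus ATG4D was 0.68, 0.69, 0.86 and 0.58, an SD of 0.11, here the smallest of the ATG4 pairs. With only probes well above background on all 4 arrays, ATG4B minus ATG4D had a smaller SD, at 0.058. With 4 arrays of 1 condition no correlation between paralogs was computed.

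Replicate 4 was the lowest array in 5 of the 8 genes and replicate 1 in the other 3, against 35.1% of all detected genes lowest on replicate 4. This order depended on the scaling. When the median that centred each array also counted signals at or below 0, replicate 4 was lowest in 1 gene and replicate 1 in 6. After quantile normalization replicate 3 was lowest in 5. Shares of all detected genes are not given for these other scalings. No array can therefore be called low for these genes.

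The deviations also moved with base composition across the arrays. For detected probes with at most 35% G and C, the median deviation from the 4-array mean was 0.27 on replicate 3 and -0.14 on replicate 1. For probes over 55% and up to 60% it was -0.11 on replicate 3 and 0.13 on replicate 1. The ATG4B probes sit near the ends of this range. The G and C poor probe was 0.11 above its mean on replicate 3, and the G and C rich one, with its marked spot kept, stood at -0.59 from its mean there and at 0.42 on replicate 1. The median deviation of detected probes over 65% G and C was -0.07 and 0.13 on these arrays. The part of base composition in the values of the genes was not tested.

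**Figure D5:**
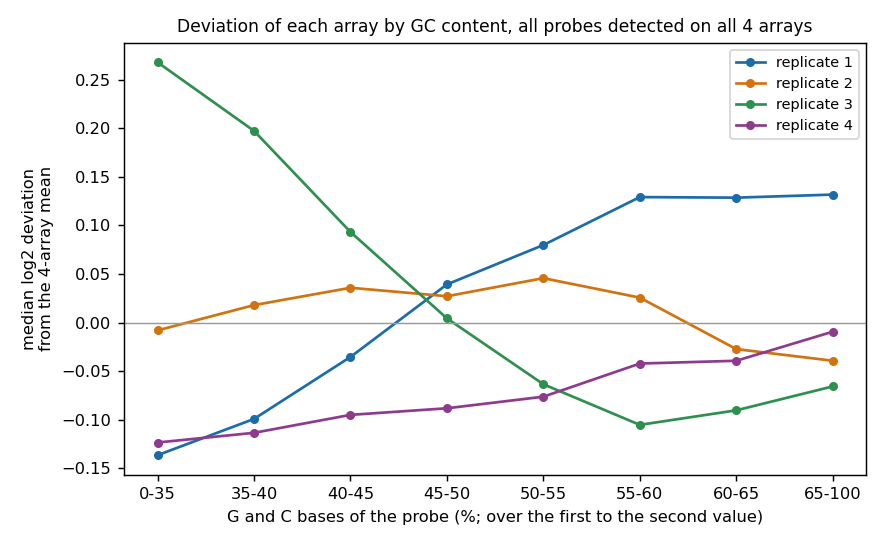
Median log2 deviation from the 4-array mean (vertical axis) of all probes well above background on all 4 arrays, grouped by the percent of G and C bases in the probe (horizontal axis), with 1 line per bafilomycin A1 replicate. Replicate 3 runs from 0.27 in the class poorest in G and C to -0.11 in the class from 55% to 60%, and replicate 1 rises from -0.14 to 0.13.

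Other genes of autophagy were taken from chosen lists, and their detected shares stand beside 52.5% of all gene names. All 12 genes of the lipid conjugation machinery, which attaches ATG8 proteins to phosphatidylethanolamine, were detected. Replicates differed by more than 1.4-fold in 6 of them. Their median SD was 0.20. ATG16L2, a relative of the scaffold ATG16L1, had the smallest SD at 3.67 ± 0.10 (n = 4). WIPI2, which brings the ATG16L1 complex to the membrane, had the largest at 5.86 ± 0.49, with replicate 3 at 6.58 and the others between 5.47 and 5.73. The number of probes behind WIPI2 differed between arrays.

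All 20 genes of the initiation and nucleation complexes, which start the autophagosome, were detected, and 10 spanned more than 1.4-fold, with a median SD of 0.24. The kinase ULK1 had the smallest SD at 4.64 ± 0.10 (n = 4) and the membrane protein ATG9A the largest at 3.23 ± 0.52. ATG9A was lowest on replicate 3 at 2.56 and highest on replicate 2 at 3.77.

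Of 22 cargo receptors, proteins that bind ATG8 and deliver cargo, 21 were detected. Of these 10 spanned more than 1.4-fold, and the median SD was 0.20. TOLLIP, an adaptor for ubiquitin-tagged cargo, had the smallest SD at 2.90 ± 0.07 (n = 4). NCOA4, the receptor for ferritin, had the largest at 6.65 ± 1.44, with replicate 3 at 8.80 and the others at 5.83 to 6.06, and its number of probes also differed between arrays. SEC62, a receptor for endoplasmic reticulum, was well above background on 2 arrays.

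The LC3 proteins are named for microtubule-associated proteins, of which 3 were found and detected. MAP1S stood at 8.63 ± 0.30 (SD, n = 4), MAP1B at 3.19 ± 0.14 and MAP1A at -0.59 ± 0.15, and MAP1S was the one that spanned more than 1.4-fold. MAP1LC3B2 and GABARAPL3 had no spots under their own names. The lists of pathway genes had 47.6% to 50% of detected genes over 1.4-fold, near the 46.4% of all detected genes.

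The promoters of 8 of the 10 genes, from 250 bases before to 50 bases after the start in the RefSeq table, were searched for CACGTG, the core of the site bound by the lysosomal regulators TFEB and MITF, which reads the same on both strands. None of the 8 held it, against 7.43% of 27305 promoters in the table. This says only that these letters are not in that window. MAP1LC3A and ATG4D were not searched.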

How the data were processed

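Gene expression was measured on 4 single-colour Agilent arrays, 1 per bafilomycin A1 replicate. For each array the authors deposited the scanner's output from Agilent Feature Extraction 10.7.3.1 according to the submitters' processing notes, with background-subtracted intensity values on a linear scale and no normalization between arrays. Coordinates in the deposited files are those of GRCh37. From these, control spots and spots with any of the software's outlier marks, for the spot or its local background, were left out. Spots of a probe were averaged, signals at or below 0 were left out, values were log2 transformed, and the array's median over non-control probes was subtracted. Probes of a gene were combined by their median. The transformation, centring and gene median follow the study's methods. Detection of a probe on an array required over 50% of its spots to be flagged well above background. A probe with no spot left on an array counted as not detected there.

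All 4 arrays belong to 1 group, so levels, SDs and counts are given with no test. Arrays that lay apart were marked by Dixon's ratio above 0.829. The number of arrays limits the precision. Scripts were tested on simulated data. Python 3.11.15, pandas 2.3.3, R 4.3.3 and limma 3.58.1 were used. Alternatives were the processed signal scaled to the 75th percentile, normexp with an offset of 50 and quantile normalization, other filters on probes and spots, other centring, and leaving out each array.

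The members, gene lists and measures were chosen with earlier results of these data known. All 10 members are named, and of each list the genes well above background on no array, those with the largest and smallest SD, and every relative of LC3 found. Markers are named as found. SEC62, well above background on only some arrays, was named after its value was seen. Of the listed pathway genes, 4 were found by an older symbol. Protein sequences were planned for comparison and were not used here.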

Additional observations from a re-analysis of the deposited data

Results flagged for a closer look

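GABARAPL1 was the only one of 18 values examined in which 1 array lay apart by Dixon's ratio. These were the 8 detected genes and the 10 probes well above background on all 4 arrays. For GABARAP, GABARAPL2, ATG4A and ATG4D, which have 1 probe each, gene and probe values are the same, so the 18 are not all separate. The ratio of GABARAPL1 was 0.896, with replicate 4 at 5.02 and the others at 5.24 to 5.27. Chance marks about 1 in 20 groups, or 5%, and 8.48% of all detected genes were marked. Neither GABARAPL1 probe was marked alone. The ratio was 0.527 with the processed signal scaled to the 75th percentile, 0.448 after normexp and quantile normalization, where replicate 3 was lowest, and 0.567 when signals at or below 0 were counted in the array median, all below the critical value. With outlying spots kept it was 0.902.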

How the results depend on the processing

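The number of detected genes does not depend on the normalization and was 8 with outlying spots left out or kept. It was 9 by the flag for positive and significant signals, which 65.4% of all gene names passed, 6 when every probe of a gene had to be well above background, and 8 to 9 when each array was left out in turn. In the count of 6, a probe whose spot was left out counted as not passing. The number spanning more than 1.4-fold was 1 throughout except for 2 after normexp and quantile normalization. For all detected genes, this share and the median SD are given only for the processing described above. The counts and median SDs of the members under the alternatives have no such value beside them. The median SD of the detected genes, 0.14, was 0.0951 with the processed signal, 0.107 after normexp and quantile normalization, 0.126 with only probes well above background on all 4 arrays and also with those that had a value on every array, 0.157 with outlying spots kept, and 0.139 to 0.160 when each array was left out. It was 0.157 with only the outlier marks for the spot itself, an alternative chosen after seeing the data. The median SD of the difference between paralogs, 0.18, was 0.126 under both filters on probes and 0.128 to 0.220 when each array was left out; the lowest of these was without replicate 1. Leaving out 1 array lowered the SD to 0.01 for GABARAPL1 and 0.11 for MAP1LC3A without replicate 4, to 0.02 for GABARAP without replicate 3 and to 0.28 for ATG4C without replicate 1. Of 216 recalculations of single genes, 30 levels moved by more than the SD between replicates and 23 SDs moved by more than 1.5-fold. Of these levels, 9 moved with the processed signal, 9 with the other centring and 10 after normexp and quantile normalization. These settings change the zero point or scale of all levels, so such shifts say little of single genes. The remaining moved level was that of ATG4B, at 4.67 instead of 4.92 under both filters on probes. After normexp and quantile normalization all 10 levels moved and not in 1 direction, with GABARAP at 6.84 instead of 7.36 and ATG4C at 0.27 instead of -0.63. When signals at or below 0 were counted in the array median, every level rose. MAP1LC3B was then at 7.02 instead of 5.93 and ATG4C at 0.46 instead of -0.63. No paired analysis was possible because the untreated samples, which share replicate numbers with the treated ones, were not analysed here. Signals close to background limit MAP1LC3A, MAP1LC3C and ATG4C.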
